A study of Rattus norvegicus with 2 samples.

Results

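Fibronectin, thrombospondin 1 and versican (Fn1, Thbs1, Vcan), the metalloproteinase inhibitor Timp1 and the cathepsins S, B, L and D (Ctss, Ctsb, Ctsl, Ctsd) are matrix and proteolysis genes of leukocytes, and they are described here across the immune cells of the infarcted rat heart. The 8 genes were chosen by symbol from the 26976 gene symbols of the count matrix, with earlier results of these data known. Each of them is on a single line of the matrix, and all 8 were detected. They were followed in 5 classes of cells, namely monocytes with Fcnb, macrophages high in Spp1, macrophages high in the C1q genes, neutrophils and dendritic cells. T and B cells served as a background, which can hold stray RNA as well as their own transcripts.

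The series asked how a patch laid on the infarcted heart acts on its immune cells. Per the labels, 1 sample came from wild-type rats with a myocardial infarction (MI). The other came from wild-type rats with an infarction and a PUR-hAESC patch, a polyurethane scaffold with human amniotic epithelial stem cells (MI+PUR-hAESC). In both, CD45+ cells were sorted from digested left ventricle, infarct and its border together, 7 days after surgery, and counted as unique molecular identifiers (UMIs) on the 10x Genomics platform. The labels give neither the number of rats behind a sample nor their age or strain.

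All cells are pooled in 1 matrix, where the ending of a barcode tells 2 libraries apart, but no source says which ending belongs to which group. They are called library 1 and library 2 here, and a difference between them has no direction in terms of the patch. With 1 library per group there was no test of any difference. Levels are given as CPM, the UMIs of a gene per 1000000 UMIs of all genes in the class, with exact Poisson 95% intervals in parentheses that cover counting error only. Library 1 had 14283 barcodes and 72506643 UMIs and library 2 had 15666 barcodes and 82802439 UMIs, and 71 barcode sequences occur in both. After filtering and removal of called doublets, 13334 and 14434 cells were left.

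Monocytes numbered 744 in library 1 and 389 in library 2, Spp1-high macrophages 1111 and 386, C1q-high macrophages 947 and 1230, neutrophils 4298 and 1790, and dendritic cells 496 and 483. Clusters were formed without the 8 genes and without the other pathway genes named below, so the genes did not define the classes. Of the marker lists, 4 of 7 measured monocyte genes, 7 of 7 for the Spp1 state, 8 of 8 for the C1q state, 11 of 12 neutrophil genes and 7 of 13 dendritic genes were at 2-fold or more over the other cells. The neutrophils of library 1 came mostly from cluster 0 (2781 cells, against 149 in library 2) and those of library 2 from cluster 4 (1320 cells, against 652), so the neutrophil differences between libraries are also given by cluster. The dendritic class also carried T cell markers, with a summed level of 1351 CPM in library 1 and 1360 CPM in library 2, and haemoglobin genes (0.476% and 0.326% of its UMIs), which lead 1 of its 2 clusters. C1qa, a macrophage marker, stood at 360 and 540 CPM in the class, and the C1q genes summed to 1555 CPM in its other cluster. That cluster made up 42.3% and 50.9% of the dendritic cells. It held 67.5% and 78.1% of the class's Ctsb UMIs, 67.4% and 76.2% of Ctsl and 71.3% and 88.0% of Ctsd. The part of these other markers in the dendritic values was not tested.

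Fibronectin and versican are large matrix molecules of the early scar, and thrombospondin 1 is a matricellular protein that binds cells and activates latent TGF-beta. TIMP-1 blocks the matrix metalloproteinases. Cathepsins B, L and S are cysteine proteases and cathepsin D an aspartic protease of the lysosome, where they break down engulfed protein, and cathepsin S also trims the invariant chain of MHC class II. Macrophages take up dead tissue after infarction, and both they and monocytes can deposit or digest matrix.

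Promoter sequence from RefSeq (GRCr8), the 250 bases before the annotated transcription start, was on hand for 6 of the 8 genes. The windows of 2 cathepsins are shown because Ctss was the gene that stood higher in library 2 in every class, and Ctsd differs from the others in repeating a motif. Capitals mark the motif searched: in Ctss a pair of GAAA repeats with any 2 bases between them, the core of the interferon-stimulated response element, on chr2:185775146-185775395 (plus strand) and in Ctsd CACGTG, an E-box, on chr1:206968822-206969071 (minus strand).
Ctss: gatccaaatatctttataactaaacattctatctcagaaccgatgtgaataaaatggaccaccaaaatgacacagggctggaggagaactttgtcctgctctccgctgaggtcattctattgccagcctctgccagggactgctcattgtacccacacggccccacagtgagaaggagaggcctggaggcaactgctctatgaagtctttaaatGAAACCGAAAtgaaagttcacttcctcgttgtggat
Ctsd: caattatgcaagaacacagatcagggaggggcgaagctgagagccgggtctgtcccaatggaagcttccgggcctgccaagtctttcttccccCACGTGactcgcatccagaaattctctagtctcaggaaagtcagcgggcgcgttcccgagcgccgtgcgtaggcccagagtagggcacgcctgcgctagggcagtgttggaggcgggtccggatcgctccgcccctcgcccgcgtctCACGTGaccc

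The Ctss match, GAAACCGAAA, begins 36 bases before the start, and a match on either strand was present in 3.41% of 33469 windows of this length. The 2 CACGTG matches of Ctsd begin 157 and 10 bases before the start, and 5.59% of all windows hold at least 1. No window of the 6 genes held TGANTCA, the form of the AP-1 motif searched, which 6.34% of all windows hold. Other forms of the AP-1 motif were not searched. The 3 motifs were searched on both strands and do not overlap in these windows, and a match describes letters and not a bound factor.

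Fn1 was a gene of monocytes and of macrophages. In monocytes it stood at 2973 CPM (2931–3017) in library 1 and 2099 CPM (2048–2152) in library 2, and in Spp1-high macrophages at 2546 CPM (2512–2580) and 1353 CPM (1311–1397). Monocytes were the higher in each library with the intervals apart, while the values of these classes overlap across the libraries. C1q-high macrophages were lower in both libraries, at 441 CPM (426–457) and 477 CPM (462–492). Neutrophils, at 22.4 and 12.02 CPM, and dendritic cells, at 35.3 and 21.7 CPM, lay close to the T and B cells, whose values ran from 6.92 to 18.3 CPM.

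**Figure D1:**
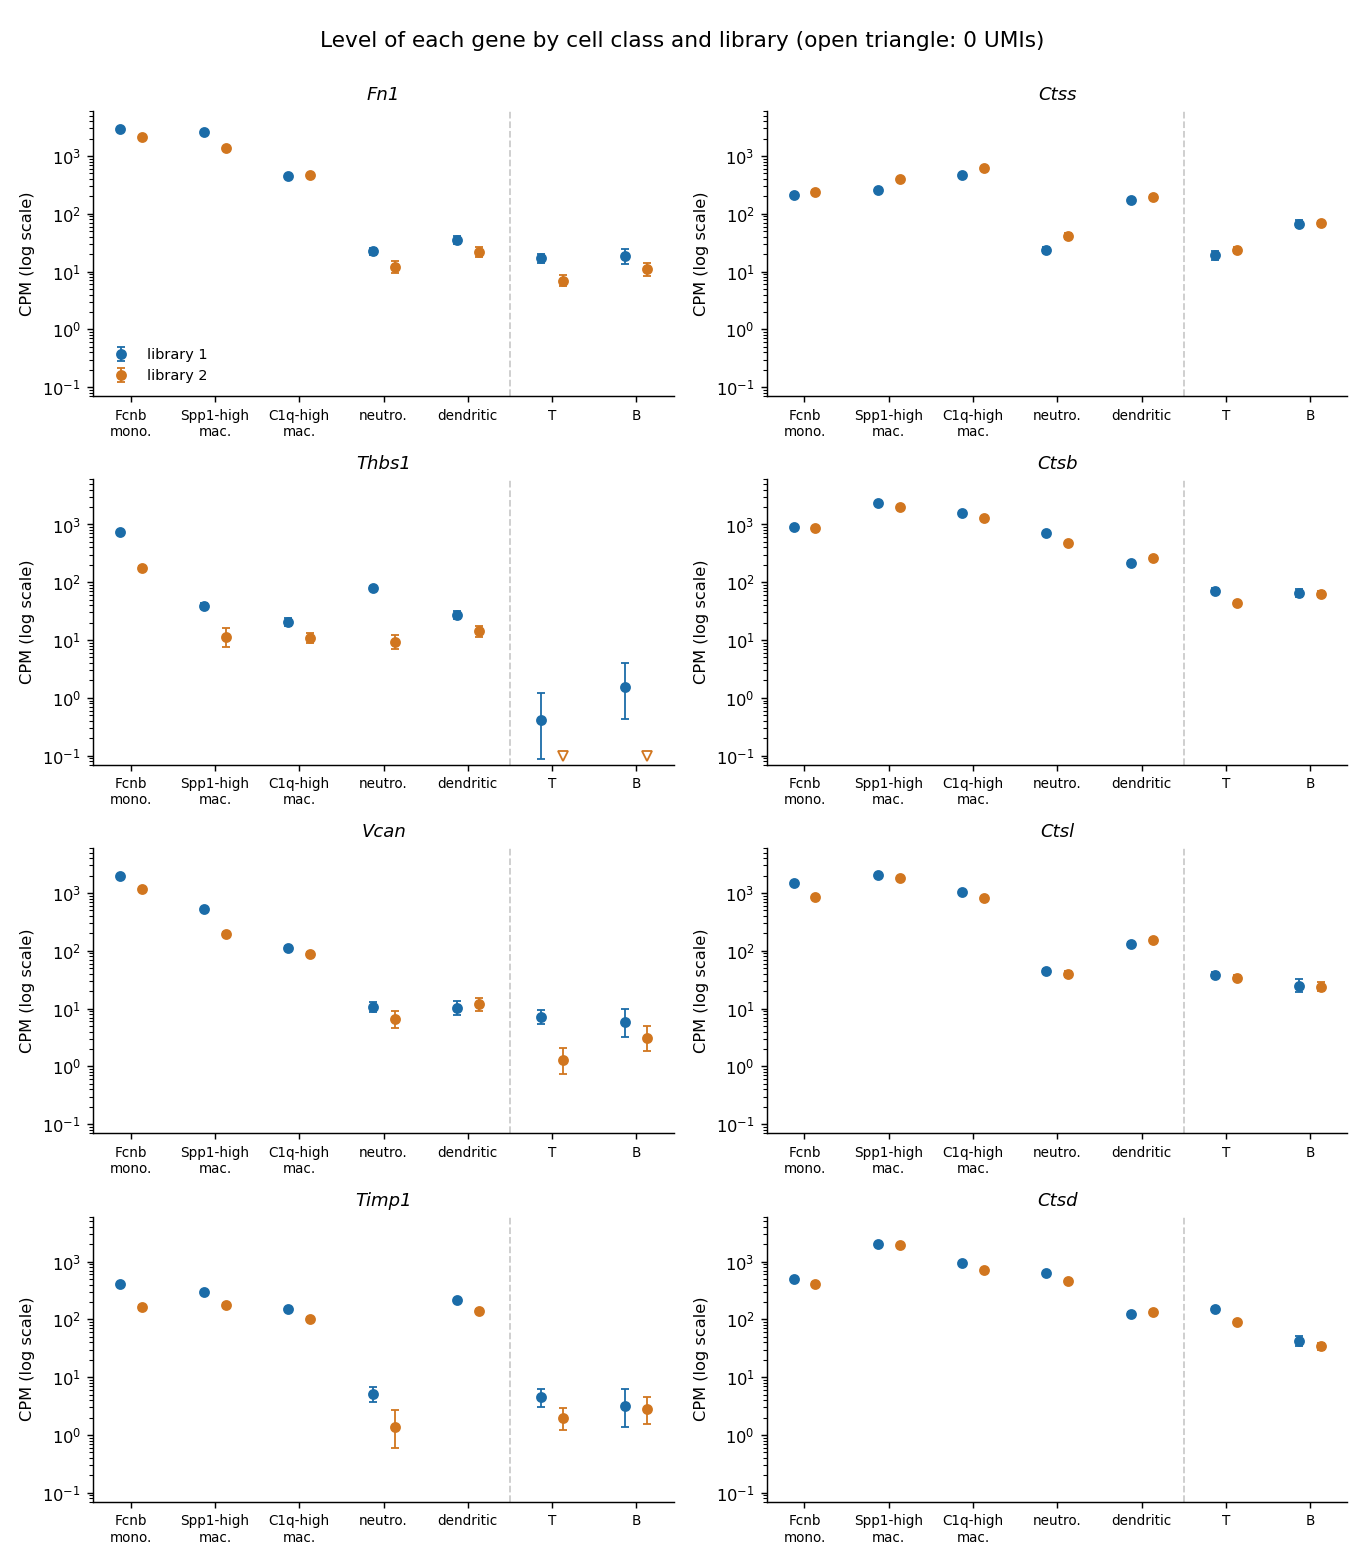
Level of each gene in CPM (log axis) in 5 myeloid classes and, right of the dashed line, in T and B cells, for library 1 (blue) and library 2 (orange), with exact Poisson 95% intervals that are mostly smaller than the points. An open triangle at the bottom marks 0 UMIs. Vcan and Thbs1 peak in monocytes, Ctsb and Ctsd in Spp1-high macrophages, and Ctss in C1q-high macrophages in both libraries.

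Vcan was highest in monocytes, at 1996 CPM (1961–2032) in library 1 and 1188 CPM (1149–1227) in library 2. Spp1-high macrophages had 526 CPM (511–542) and 198 CPM (182–215), and C1q-high macrophages 114 CPM (106–122) and 89.2 CPM (82.8–95.9). These 3 classes kept the same order in both libraries without overlap. Vcan in neutrophils (10.9 and 6.62 CPM) and dendritic cells (10.4 and 12.01 CPM) was near the 1.29 to 7.16 CPM of the T and B cells.

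Thbs1 was highest in monocytes in both libraries. Its level there was 747 CPM (726–769) in library 1 and 178 CPM (163–193) in library 2. Spp1-high macrophages had 38.7 CPM (34.6–43.1) and 11.3 CPM (7.72–15.9), C1q-high macrophages 20.7 CPM (17.5–24.4) and 10.97 CPM (8.81–13.5), and dendritic cells 27.2 CPM (23.0–32.0) and 14.1 CPM (11.1–17.8). Neutrophils had 80.0 CPM (74.6–85.8) in library 1 and 9.41 CPM (7.07–12.3) in library 2, so apart from monocytes the order of the classes was not the same in both libraries. The background was low: Thbs1 had 3 UMIs in T cells and 4 in B cells of library 1 and 0 in either class of library 2. Platelets are rich in thrombospondin 1, and of the 6 platelet markers 0 reached 20 CPM in neutrophils, with Ppbp, Gp9 and Tubb1 at 0 in both libraries. In monocytes the 1 platelet marker above 0 was Pf4, which macrophages also express. In dendritic cells of library 1 only Itga2b was at 0, and in C1q-high macrophages of library 2 only Gp1bb and Tubb1 were. The part of platelets in the Thbs1 values was not tested.

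Fibroblasts are the main makers of these matrix proteins in the heart. Of 9 fibroblast markers, 0 reached 20 CPM in any of the 5 classes, and their summed level ran from 1.39 CPM in neutrophils of library 2 to 40.4 CPM in C1q-high macrophages of library 2. A separate cluster led by Sparc and Col4a1 held 192 and 64 cells. It had Fn1 at 412 CPM (386–440) and 172 CPM (146–201) and supplied 1.86% and 0.864% of all Fn1 UMIs.

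The macrophage values of Fn1, Vcan and Thbs1 came largely from a single subcluster in each class, both picked out after their values were seen. Subcluster 6 of the Spp1-high cells, led by Ccl24, Dmkn, Spp1 and Arg1, had Fn1 at 7245 CPM (7139–7351) in library 1 and 5238 CPM (5014–5469) in library 2, where the other 4 Spp1-high subclusters had 197 to 1322 CPM. It made up 22.1% of the Spp1-high cells of library 1 and 12.95% of those of library 2 (246 and 50 cells), and held 83.0% and 53.8% of their Fn1 UMIs, 87.8% and 79.0% of their Vcan UMIs and 93.9% and 81.3% of their Thbs1 UMIs. Within it, Vcan stood at 1585 CPM (1536–1636) and 1125 CPM (1022–1234), and Thbs1 at 125 CPM (111–139) and 66.0 CPM (43.1–96.7).

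Subcluster 9 of the C1q-high cells, led by Prg4, C6, Lyve1 and Tgfb2, was the counterpart in that class. Its 70 and 154 cells made up 7.39% and 12.5% of the class and held 86.3% and 79.2% of its Fn1 UMIs, 83.1% and 77.7% of its Vcan UMIs and 85.5% and 84.3% of its Thbs1 UMIs. Fn1 stood there at 3583 CPM (3448–3722) and 2646 CPM (2554–2742), against 8.09 to 383 CPM in the other 6 C1q-high subclusters. Vcan was at 890 CPM (824–961) and 486 CPM (447–528). The class as a whole had nearly equal Fn1 in the 2 libraries, while within subcluster 9 the intervals of library 2 lay below those of library 1 and the subcluster held more of the cells of library 2. Spp1 was at 77.4 CPM in subcluster 9 and at 14542 CPM in subcluster 6.

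**Figure D2:**
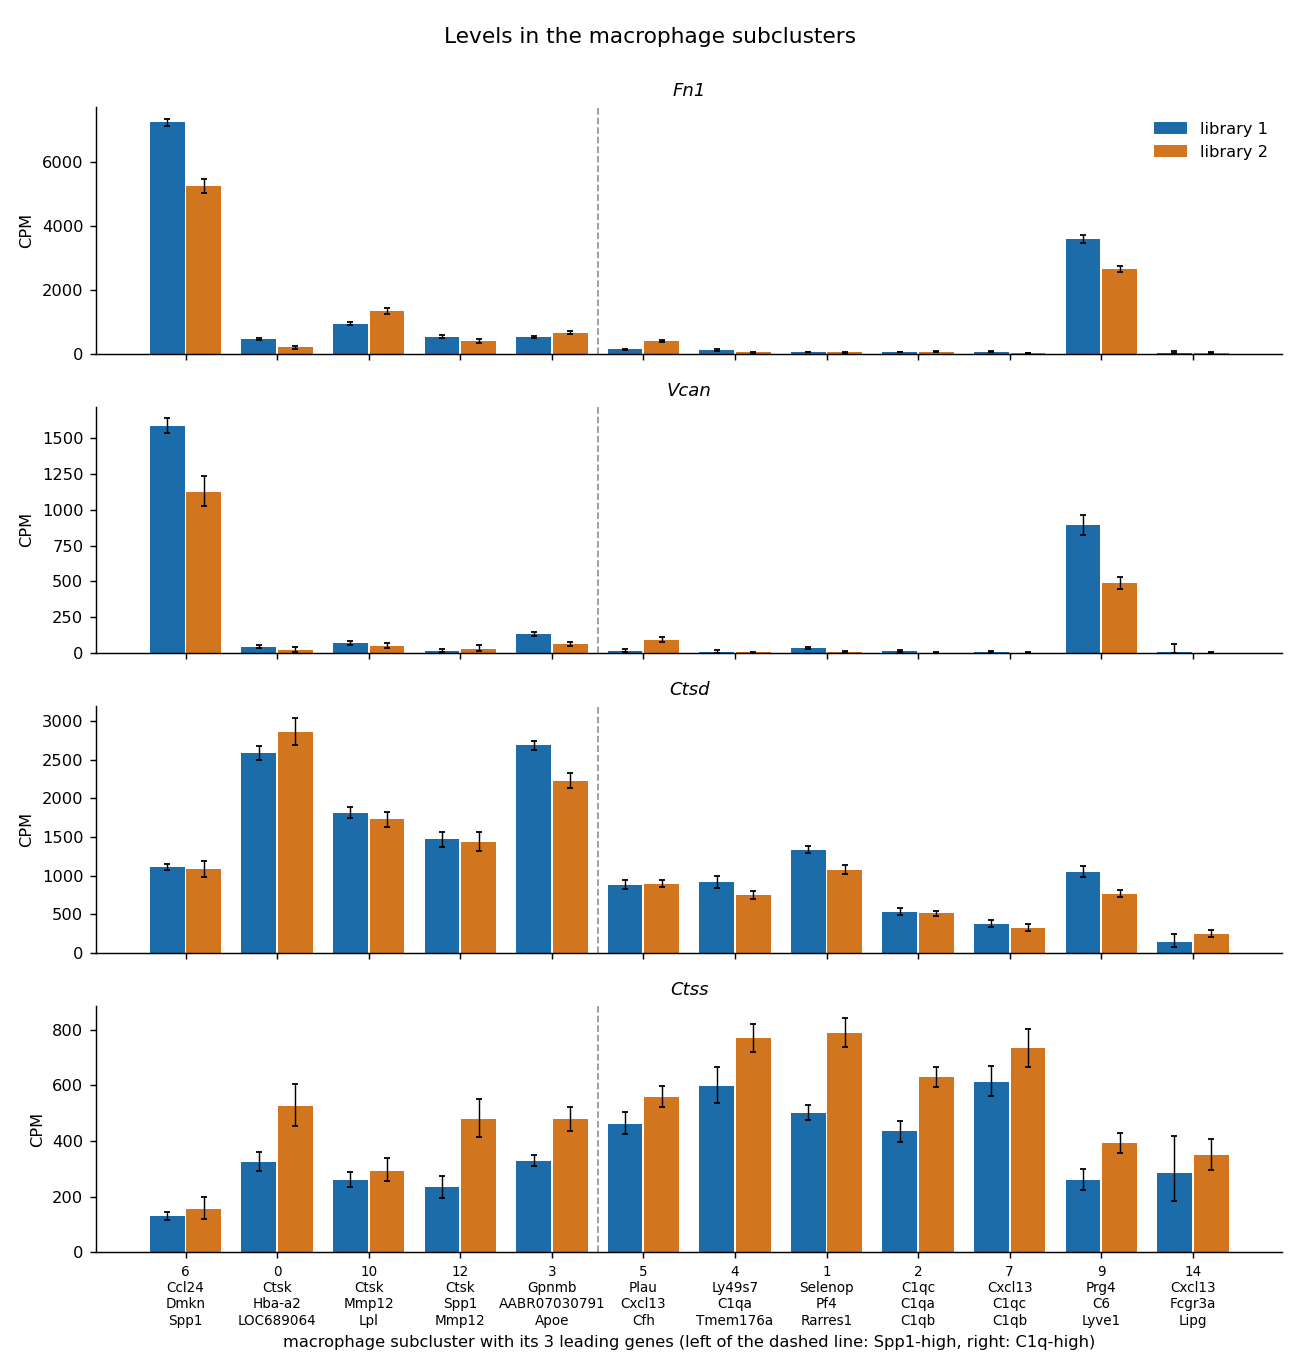
Levels in CPM of Fn1, Vcan, Ctsd and Ctss (top to bottom) in the 5 Spp1-high and 7 C1q-high macrophage subclusters, ordered by Spp1 within each class and labelled with number and 3 leading genes. Bars show library 1 (blue) and library 2 (orange) with exact Poisson 95% intervals. Fn1 and Vcan stand out in subclusters 6 and 9, Ctsd in subclusters 0 and 3, and Ctss is higher in library 2 in each of the 12 subclusters.

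Per cell, the matrix genes were detected most often in monocytes. After every cell was thinned to 1500 UMIs, Fn1 was detected in 88.6% of the monocytes of library 1 (86.1 to 90.8, exact binomial) and 76.6% of those of library 2 (72.1 to 80.7), Vcan in 77.3% (74.1–80.2) and 61.7% (56.7–66.6), and Thbs1 in 40.6% (37.0–44.2) and 13.4% (10.1–17.2). The values without thinning were 94.2% and 87.9% for Fn1, 90.5% and 85.9% for Vcan and 60.3% and 28.3% for Thbs1, at median depths of 7954 and 7576 UMIs. Among thinned Spp1-high macrophages, Fn1 was detected in 42.9% and 36.2%, Vcan in 22.7% and 13.2% and Thbs1 in 3.15% and 1.37%. In thinned C1q-high macrophages Fn1 was detected in 11.3% and 14.8%. In thinned T cells, Fn1 was detected in 2.54% and 1.02%, at median depths of 4324 and 4721 UMIs. All 3 genes were found together in 35.7% of the thinned monocytes of library 1 and 10.54% of those of library 2, against 2.58% and 1.10% of the Spp1-high and 1.502% and 0.583% of the C1q-high macrophages.

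Thbs1 was unevenly spread among monocytes. The 10% of monocytes with the most Thbs1 held 51.9% of its thinned UMIs in library 1 and 89.1% in library 2, while for Fn1 the corresponding share was 27.2% and 33.6%. In C1q-high macrophages the top 10% of cells held 97.6% and 91.6% of the Fn1 UMIs, while for Ctsb in the same class it held 33.5% and 36.0%.

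Timp1, the inhibitor among the 8 genes, was shared more evenly by the classes. Monocytes had 413 CPM (397–430) and 161 CPM (147–176), Spp1-high macrophages 295 CPM (284–307) and 176 CPM (161–192), dendritic cells 216 CPM (204–229) and 141 CPM (131–151), and C1q-high macrophages 151 CPM (142–160) and 102 CPM (94.8–109). In each library Spp1-high macrophages, dendritic cells and C1q-high macrophages followed in this order with the intervals apart. Monocytes were above Spp1-high macrophages in library 1 and below them in library 2, where those intervals overlap. Values of neighbouring classes overlap across the libraries. Neutrophils, at 5.08 and 1.39 CPM, were at the level of the T and B cells (1.93 to 4.496 CPM). In subcluster 6 Timp1 reached 612 CPM (582–644) and 348 CPM (292–411). Of 12 macrophage subclusters, 11 had less Timp1 in library 2, with the intervals apart in 6.

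Ctss had its highest level in C1q-high macrophages, at 475 CPM (459–492) in library 1 and 618 CPM (601–635) in library 2. Spp1-high macrophages followed with 253 CPM (242–264) and 396 CPM (373–419), then monocytes with 214 CPM (203–226) and 239 CPM (221–257) and dendritic cells with 170 CPM (159–182) and 197 CPM (185–209). The library values of neighbouring classes did not overlap in this order. Neutrophils had 23.5 CPM (20.6–26.7) and 41.3 CPM (36.2–46.9), within the 19.1 to 68.6 CPM of the T and B cells. Library 2 was higher in all 5 classes, with the intervals overlapping in monocytes. It was higher in 12 of 12 macrophage subclusters, with the intervals apart in 8. So it was in 3 of 3 neutrophil clusters (apart in 1) and in 2 of 2 dendritic clusters (apart in 1). T cells (19.1 and 23.8 CPM) and B cells (67.5 and 68.6 CPM) were also slightly higher there, with the intervals overlapping.

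The interferon-response gene Irf7 was also higher in library 2. It stood at 283 CPM in library 1 and 457 CPM in library 2 in neutrophils and at 39.2 and 113 CPM in dendritic cells. In monocytes Irf7 stood at 64.9 CPM in library 1 and 292 CPM in library 2, in Spp1-high macrophages at 31.8 and 189 CPM and in C1q-high macrophages at 67.5 and 276 CPM. Isg15, another such gene, stood at 101 and 247 CPM, 14.0 and 34.2 CPM, and 30.2 and 61.9 CPM in these classes. The part of an interferon response in the Ctss values was not tested. Among the subclusters, Ctss was lowest in the matrix-rich subcluster 6, at 131 CPM and 155 CPM, and subcluster 9 had 259 and 393 CPM.

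Ctsb, Ctsl and Ctsd all peaked in Spp1-high macrophages. Ctsb stood there at 2314 CPM (2282–2347) in library 1 and 2026 CPM (1974–2079) in library 2, and then at 1594 CPM (1564–1624) and 1310 CPM (1285–1335) in C1q-high macrophages, 918 CPM (894–942) and 863 CPM (830–897) in monocytes, 701 CPM (685–717) and 469 CPM (451–487) in neutrophils and 218 CPM (206–231) and 268 CPM (254–283) in dendritic cells. This order held in both libraries without overlap. T and B cells had 43.8 to 71.9 CPM. Ctsb was also plain in an unnamed cluster led by Mal and Adgre4, at 687 CPM (649–725) and 713 CPM (688–739), which held 2.40% of all Ctsb UMIs in library 1 and 9.01% in library 2.

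Ctsl was high in macrophages and monocytes and low in neutrophils. It stood at 2058 CPM (2027–2088) and 1834 CPM (1784–1884) in Spp1-high macrophages, at 1507 CPM (1477–1538) and 862 CPM (829–895) in monocytes and at 1047 CPM (1023–1072) and 834 CPM (814–854) in C1q-high macrophages, where the last pair of classes overlapped. Dendritic cells had 132 CPM (122–142) and 156 CPM (145–167). Neutrophils had 44.7 and 40.1 CPM, close to the 23.9 to 37.7 CPM of the T and B cells, and Ctsl was detected in 4.11% and 5.003% of thinned neutrophils and in 4.32% and 4.25% of thinned T cells. Outside the 5 classes, a small cluster led by Siglech and Irf8 had Ctsl at 1077 and 1083 CPM, and the Sparc and Col4a1 cluster had 1231 CPM (1185–1279) and 1440 CPM (1363–1521).

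Ctsd stood at 1983 CPM (1953–2013) and 1921 CPM (1870–1973) in Spp1-high macrophages and at 930 CPM (908–953) and 701 CPM (683–720) in C1q-high macrophages. Neutrophils had 622 CPM (606–637) and 455 CPM (438–473), and monocytes 504 CPM (486–522) and 413 CPM (390–436). Neutrophils were the higher in each library, while the values of these classes overlap across the libraries. Dendritic cells had 123 and 133 CPM. T cells of library 1, at 153 CPM, were above dendritic cells. Among macrophages Ctsd was highest in subcluster 0, led by Ctsk and Hba-a2 (2583 and 2865 CPM), and subcluster 3, led by Gpnmb and Apoe (2688 and 2230 CPM), and it stood at 1108 and 1081 CPM in subcluster 6. Within neutrophils it was higher in cluster 9, led by Car4 and Cxcl3 (1059 and 1063 CPM), than in cluster 0 (582 and 686 CPM) or cluster 4 (284 and 355 CPM). In each of these 3 clusters library 2 was the higher, although the class as a whole was lower there. Cluster 4 made up 15.2% of the neutrophils of library 1 and 73.7% of those of library 2.

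The classes that held the transcripts of a gene depended on its level and on cell numbers, which the gate and dissociation also set. Monocytes, 5.58% of the cells of library 1 and 2.70% of library 2, held 72.4% and 60.7% of all Thbs1 UMIs, 64.9% and 62.0% of Vcan, 38.1% and 35.8% of Fn1 and 28.7% and 14.2% of Timp1. Spp1-high macrophages, 8.33% and 2.67% of the cells, held 44.9% and 21.7% of Fn1, 37.1% and 17.2% of Ctsb, 41.0% and 22.9% of Ctsl and 41.3% and 22.03% of Ctsd. C1q-high macrophages, 7.10% and 8.52% of the cells, held 33.9% and 43.9% of Ctss and 20.9% and 31.9% of Ctsb. Neutrophils were 32.2% and 12.4% of the cells but held 0.465% and 0.390% of Fn1, against 15.2% and 10.6% of Ctsd.

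**Figure D3:**
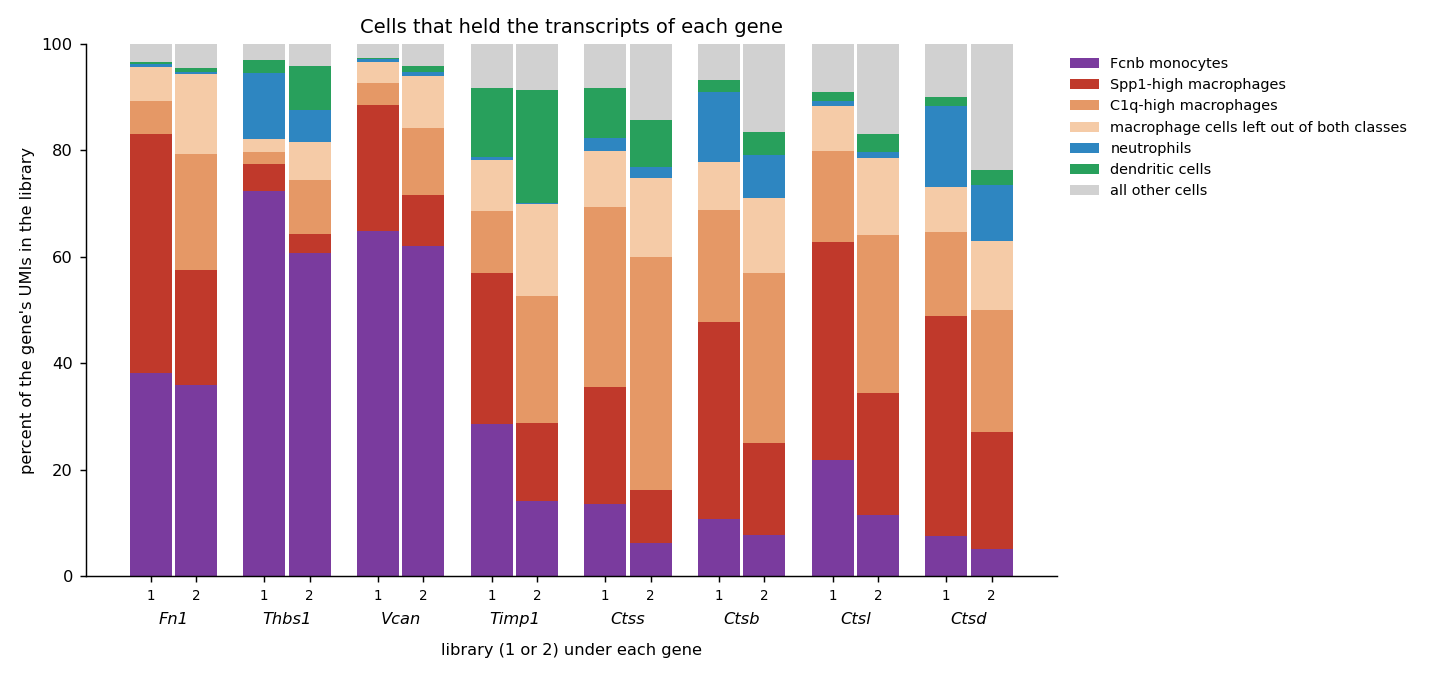
Percent of each gene's UMIs that lay in each group of cells, for library 1 (left bar of each pair) and library 2 (right bar), over all kept cells. Monocytes hold most of the Thbs1 and Vcan UMIs in both libraries, and C1q-high macrophages (light orange) hold a larger percentage of every gene in library 2.

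Between the libraries, the members past 2-fold were all lower in library 2 and all were matrix genes or Timp1. The 8 genes were chosen with earlier results of these data known, so the shares of all genes are given for scale only. Past 2-fold means a log2 ratio of CPM plus 10 (library 2 over library 1) of 1 or more in either direction, in genes that reach the minimum of 20 CPM in 1 of the libraries. In monocytes 2 of 8 genes were past it, Thbs1 at -2.01 and Timp1 at -1.30, where 0.574% of all genes were past it in this direction, 1.53% in the other and 2.10% in either. In Spp1-high macrophages 2 of 8 were past it, Vcan at -1.37 and Thbs1 at -1.19, against 0.363% of all genes in this direction, 0.612% in the other and 0.975% in either. In neutrophils 1 of the 6 genes at the minimum level was past it, Thbs1 at -2.21, against 1.08%, 1.42% and 2.51%. In C1q-high macrophages 0 of 8 genes were past it, where 0.293% of all genes were lower, 0.678% higher and 0.972% either. In dendritic cells 0 of 7 genes at the minimum were past it, against 0.256%, 0.475% and 0.731%, but 3 were when called doublets were kept. In T and B cells 0 of 4 genes at the minimum were past it, where 0.134% and 0.125% of all genes were lower, 0.115% and 0.179% higher and 0.249% and 0.304% either.

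The 2 Spp1-high values and the neutrophil value were smaller with the mix of clusters held alike. With each cluster given the same weight in both libraries, Vcan in Spp1-high macrophages was at -0.53, Thbs1 there at -0.57 and Thbs1 in neutrophils at -0.74, all within 2-fold. By cluster, Thbs1 in neutrophils stood at 89.9 CPM (82.6–97.6) in library 1 and 65.3 CPM (39.9–101) in library 2 in cluster 0, at 10.7 CPM (6.46–16.8) and 3.99 CPM (2.40–6.23) in cluster 4 and at 111 CPM (97.0–127) and 22.4 CPM (12.5–37.0) in cluster 9. It was lower in library 2 in all 3, with the intervals apart in clusters 4 and 9. Ctsb in neutrophils was also lower in library 2 in all 3 clusters with the intervals apart, at 717 and 526 CPM in cluster 0, 579 and 440 CPM in cluster 4 and 759 and 644 CPM in cluster 9. Ctsl was higher in library 2 in clusters 0 (44.2 and 91.4 CPM) and 4 (23.7 and 35.9 CPM) and lower in cluster 9 (65.5 and 46.3 CPM), and its class ratio went from -0.13 to 0.53 with clusters weighted alike. Vcan in neutrophils went from -0.33 to 0.62, with 7.58 and 39.2 CPM in cluster 0, 11.3 and 3.36 CPM in cluster 4 and 21.1 and 14.9 CPM in cluster 9. Fn1 and Timp1 in neutrophils stayed below 0, at -0.03 and -0.26. The monocytes formed 1 cluster, so their values could not be split in this way.

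Haemoglobin genes moved with the library in some of these classes. They took 0.00107% of the UMIs of Spp1-high macrophages in library 1 and 0.420% in library 2, and 0.000727% and 0.257% of those of neutrophils. The summed level of the 4 measured erythroid markers was 7.62 and 2119 CPM in Spp1-high macrophages and 3.88 and 1235 CPM in neutrophils, with 0 and 2 of the 4 at 20 CPM. Their part in the differences of these classes was not tested. In monocytes the haemoglobin percentages were 0.000533% and 0.00212%, and 0 of the 4 markers reached 20 CPM in either library.

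**Figure D4:**
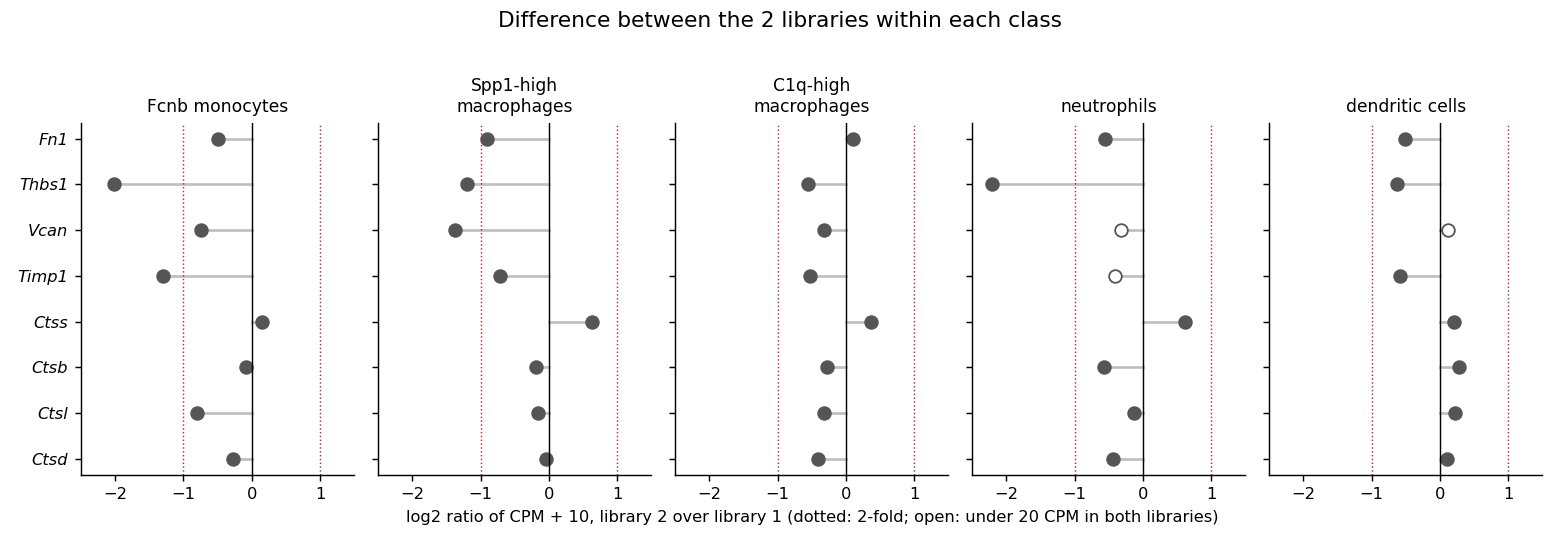
Log2 ratio of CPM plus 10, library 2 over library 1, for each of the 8 genes in 5 classes. Points left of the solid line are lower in library 2, dotted lines mark 2-fold, and open points were under 20 CPM in both libraries. Thbs1 and Timp1 are left of the line in every class and Ctss is right of it in every class.

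Other ratios were smaller. Fn1 was at -0.50 in monocytes, -0.91 in Spp1-high and 0.11 in C1q-high macrophages (below 0 when clusters were weighted alike), Vcan at -0.74 in monocytes and Ctsl at -0.80 in monocytes. Fn1 in Spp1-high macrophages passed 2-fold when doublets were kept (-1.07) and at the finer clustering (-1.11), and was at -0.35 with clusters weighted alike. Of the 5 Spp1-high subclusters, 3 had less Fn1 in library 2 and 2 had more, all with the intervals apart. Ctss was at 0.15 in monocytes, 0.63 in Spp1-high macrophages, 0.37 in C1q-high macrophages, 0.61 in neutrophils and 0.20 in dendritic cells. Ctsb and Ctsd ran from -0.57 to 0.29 over the classes. Over all 8 members, also those under the minimum, the median was -0.62 in monocytes, -0.45 in Spp1-high and -0.32 in C1q-high macrophages. It was -0.42 in neutrophils and 0.11 in dendritic cells. The median of all genes at the minimum was 0.05, 0.01, 0.01, -0.08 and 0.02 in this order.

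Other lysosomal proteases were within 2-fold. Of 11 listed cathepsins and legumain, 6 to 8 per class reached 20 CPM and 0 were past 2-fold in any class. Of all genes, only 0.731% to 2.51% per class were past 2-fold. Low counts here and in the lists below are thus no trait of these lists. Cathepsin Z (Ctsz) stood at 1470 and 1524 CPM in Spp1-high and 1620 and 1691 CPM in C1q-high macrophages, Ctsh at 1200 and 1124 CPM and Ctsa at 963 and 958 CPM in C1q-high macrophages, and Lgmn, the asparaginyl endopeptidase that processes cathepsins, at 1230 and 1191 CPM in Spp1-high macrophages. Of 16 lysosomal partners, 12 to 15 reached the minimum, and the only value past 2-fold over the 5 classes was the lysosomal lipase Lipa in monocytes, at 79.7 and 176 CPM. The prosaposin gene Psap stood at 1822 and 2330 CPM in Spp1-high macrophages and 2039 and 2298 CPM in C1q-high macrophages, Npc2 at 1945 and 1657 CPM, Lamp1 at 925 and 962 CPM and Grn at 707 and 828 CPM in Spp1-high macrophages.

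Cystatins, which inhibit cysteine cathepsins, differed by class. Of 7 listed, 3 or 4 reached the minimum, with 1 past 2-fold higher in library 2 in monocytes (Stfa2, 0.969 and 23.5 CPM), in Spp1-high macrophages (Cst6, 7.04 and 35.6 CPM) and in neutrophils (Stfa2, 1208 and 3191 CPM). Cst3, the secreted cystatin C, stood at 6440 and 6166 CPM in dendritic cells and at 2922 and 2632 CPM in C1q-high macrophages. Cstb stood at 2122 and 1912 CPM in Spp1-high macrophages, and Cst7 at 139 and 132 CPM in dendritic cells.

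Timp2 was the only 1 of 4 other metalloproteinase inhibitors to reach the minimum, with 1377 and 1211 CPM in Spp1-high macrophages and 1159 and 792 CPM in C1q-high macrophages, and 0 were past 2-fold. Timp3, Timp4 and Reck stayed at or under 1.30 CPM. Of 17 metalloproteinases, 3 to 5 per class reached the minimum and 1 was past 2-fold, Adam8 in monocytes at 22.3 and 5.96 CPM. The neutrophil collagenase Mmp8 stood at 859 and 1303 CPM in neutrophils, the macrophage elastase Mmp12 at 167 and 261 CPM in Spp1-high macrophages, and the sheddases Adam10 and Adam17 at 68.8 and 58.0 CPM and 94.4 and 113 CPM in C1q-high macrophages.

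Spp1, Mmp8 and Cd63 are also on the marker lists that named the classes, so their class levels are no finding. Of 23 other matrix and matricellular proteins, 3 to 7 per class reached the minimum, and 1 was past 2-fold, the factor XIII subunit F13a1 in C1q-high macrophages at 135 and 46.5 CPM. Their median ratio was -0.17 in monocytes, -0.42 in Spp1-high macrophages, 0.12 in C1q-high macrophages, -0.44 in neutrophils and -0.25 in dendritic cells. Spp1 stood at 8947 and 6693 CPM in Spp1-high macrophages, the granule proteoglycan Srgn at 6411 and 4729 CPM in neutrophils and 1649 and 1129 CPM in monocytes, Tgfbi at 543 and 387 CPM and Emilin2 at 150 and 145 CPM in monocytes. Of 12 receptors for the matrix members, 7 to 10 reached the minimum and 1 was past 2-fold, Cd63, the receptor of TIMP-1, in neutrophils at 1166 and 555 CPM. The fibronectin receptor chain Itgb1 stood at 503 and 490 CPM in Spp1-high macrophages, the thrombospondin receptor Cd47 at 237 and 267 CPM and the hyaluronan receptor Cd44 at 563 and 514 CPM in monocytes. Of 6 versican and hyaluronan partners 0 reached 20 CPM in any class.

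The genes with patterns most like those of the members were found by Pearson correlation of log2(CPM plus 10) over 14 points, the 5 classes with T and B cells in both libraries, among 4710 genes. The points share 2 libraries and the same cells' depth, and the values are descriptions. For Fn1 they were Sdc1 (0.98), Npc1 (0.98) and Tgm2 (0.97), for Vcan Sidt2 (0.97), Fn1 (0.97) and Tgm2 (0.97), and for Thbs1 Xbp1 (0.96), Adipor2 (0.94) and Tmx4 (0.93). Timp1 was nearest to Rab7b (0.98), Matk (0.98) and Fkbp11 (0.97). Ctss was near to Ly49si1 (0.98) and Slamf9 (0.97), Ctsb to Cd63 (0.99), Ftl1 (0.98) and Timp2 (0.98), Ctsl to Mitf (0.99), Msr1 (0.98) and Fam20c (0.98), and Ctsd to Por (0.98), Lamp2 (0.97) and Rit1 (0.96). Among the members, Ctsb and Ctsd were at 0.94, Fn1 and Ctsl at 0.96, and Thbs1 and Ctss at 0.31.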

How the data were processed

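Per the labels' protocols, CD45+ cells were profiled with the 10x Genomics platform. The authors deposited raw UMI counts, in 1 matrix of 32623 gene lines whose header, per the file headers, names Cell Ranger 4.0.0. The genome build is not given in the sources used here. A deposited table of 33756 barcodes names libraries, but the matrix has only 111 of them with an equal suffix, so it was not used. Lines of the same symbol were summed. Barcodes with under 200 genes or over 20% mitochondrial UMIs (315 and 235) and the doublets called by Scrublet (4.54% and 6.46%, cut-offs 0.274 and 0.247) were left out. Cells were clustered with scanpy 1.11.5 (2000 variable genes without 100 member and pathway genes, 30 components, 15 neighbours, Leiden resolution 1), and macrophage clusters were clustered again. Classes follow marker lists. The limit of 2000 CPM of Spp1 for Spp1-high subclusters was chosen with the clusters in view. It lies between subclusters at 1075 and 4295 CPM. The other macrophage subclusters that were kept were called C1q-high, with no limit on C1q at this step. Spp1-high subcluster 0 had a C1q sum of 4580 CPM. Macrophage subclusters with many markers of dendritic, lymphoid or neutrophil cells (225 and 279 cells), a cluster with a median of 12.0% mitochondrial UMIs and a dividing cluster were left out of both classes.

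The members and lists were chosen with earlier results of these data known. Named are the 8 members, the 4 genes of each pathway list with the highest mean CPM, list genes past 2-fold, and the 3 most alike genes per member, of which 1 is not reported here. Irf7 and Isg15, the subclusters and clusters outside the 5 classes were named after their values were seen. The levels step was tested on simulated counts. Alternatives were a pseudocount of 1, no minimum, edgeR 4.0.16 TMM factors, doublets kept, all genes for clustering, resolution 2, at most 10% mitochondrial UMIs, clusters weighted alike, and no thinning.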

Additional observations from a re-analysis of the deposited data

How the results depend on the processing

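The number of genes past 2-fold was 2 in monocytes under all 8 alternatives and 0 in C1q-high macrophages. The monocytes formed 1 cluster, so weighting clusters alike could not change their values. With clusters weighted alike in both libraries the number was 0 in place of 2 in Spp1-high macrophages and 0 in place of 1 in neutrophils. With doublets kept and cells clustered anew it was 3 in place of 0 in dendritic cells (Fn1 -1.26, Thbs1 -1.44, Vcan -1.22), and the cause was not tested. In Spp1-high macrophages it was 3 in place of 2 with doublets kept and at resolution 2, where Fn1 also passed. No value past 2-fold changed sign. Of the 40 ratios, 3 changed sign with doublets kept, 5 with all genes used for clustering and 6 with clusters weighted alike, among them Fn1 in C1q-high macrophages (0.11 to -0.26). Thbs1 in monocytes ran from -2.12 to -2.00 and Ctss in Spp1-high macrophages from 0.56 to 0.68 over the alternatives. Ctss stayed above 0 and Thbs1 and Timp1 below 0 in all 5 classes under every alternative that can change a ratio. The setting without a minimum cannot. TMM factors moved all ratios of monocytes by -0.11. No paired analysis was possible because there is 1 library per group. Depth limits Thbs1 outside monocytes, with 32 UMIs in Spp1-high macrophages and 54 in neutrophils of library 2.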
